A study of Mus musculus with 6 samples.

Results

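The Hox cluster genes are the mouse genes of the Hoxa, Hoxb, Hoxc and Hoxd clusters. They were taken as every gene whose array symbol is Hox, a cluster letter and a number, and which has a probe set (the array's set of probes for 1 gene) carrying that symbol alone. This gave 37 of the 19939 genes tested: 10 in cluster A on chromosome 6, 9 in cluster B on chromosome 11, 9 in cluster C on chromosome 15 and 9 in cluster D on chromosome 2. Each of the 37 had 1 probe set.

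The study compared mouse embryonic fibroblasts (MEF cells, the mesenchymal cells that grow out of dissociated embryos) of 2 kinds on 6 whole-transcript arrays. The tetraploid group, from the line coded 174, has an abnormal DNA content per the labels, and the series title calls these cells transformed; the diploid group, coded FW, is the normal control. Each group has 3 arrays, and both were grown in DMEM with 10% serum to 80% confluence. Strain, embryonic age, the part of the embryo used and the means of transformation are not given in the labels. Each group is a single line, so the effects of ploidy, of transformation and of the line itself cannot be told apart. Nothing in the labels tells separate cultures from repeat arrays within a line, so p-values measure only the spread between these arrays, which may be technical.

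Hox genes encode homeodomain transcription factors that give cells along the head-to-tail axis, and along the limb, their positional identity. Within a cluster the genes stand in the order in which they are switched on: low-numbered (3′) genes early and toward the head, high-numbered (5′) genes late and toward the tail and the tip of the limb. Genes with the same number in different clusters descend from 1 ancestral gene and form a paralogue group, numbered 1 to 13. Fibroblasts keep much of the Hox pattern of the body site they came from, and Polycomb and Trithorax complexes hold that pattern through cell division.

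Of the 37 genes, 6 rose and 6 fell in the tetraploid line. The 6 genes that rose, meaning higher in the tetraploid line at an adjusted p under 0.05 by limma, were Hoxc4, Hoxc6, Hoxa7, Hoxb5, Hoxb7 and Hoxb9. The 6 that fell were Hoxb6, Hoxa11, Hoxc10, Hoxd10, Hoxd11 and Hoxd13. Each set of 6 is 16.2% of the Hox genes, against 6.08% of all 19939 genes that rose and 7.75% that fell. Genes that fell were at or below the background level on every tetraploid array, so their differences in log2 signal have no size that can be read as a fold, as given with each below.

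The 250 bases before the RefSeq start are shown for 5 of the 12 changed genes, since these genes moved in opposite directions. Coordinates are those of GRCm38.p6 and the bases are from RefSeq. Hoxd13 lies at chr2:74667975-74668224 on the plus strand, Hoxd10 at chr2:74691641-74691890 on the plus strand and Hoxa11 at chr6:52245811-52246060 on the minus strand, and these 3 genes fell. Hoxa7 lies at chr6:52218574-52218823 on the minus strand and Hoxc4 at chr15:103034145-103034394 on the plus strand, and both rose. Capitals mark matches, on either strand, to TAAT, the core bound by many homeodomains, and to TTTAT, a core known from 5′ Hox proteins; the 2 motifs do not contain each other.
Hoxd13: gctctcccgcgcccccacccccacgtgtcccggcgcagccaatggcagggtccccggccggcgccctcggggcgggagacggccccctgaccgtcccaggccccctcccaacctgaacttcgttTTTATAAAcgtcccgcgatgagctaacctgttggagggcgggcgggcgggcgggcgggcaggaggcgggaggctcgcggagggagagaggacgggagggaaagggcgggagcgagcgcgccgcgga
Hoxd10: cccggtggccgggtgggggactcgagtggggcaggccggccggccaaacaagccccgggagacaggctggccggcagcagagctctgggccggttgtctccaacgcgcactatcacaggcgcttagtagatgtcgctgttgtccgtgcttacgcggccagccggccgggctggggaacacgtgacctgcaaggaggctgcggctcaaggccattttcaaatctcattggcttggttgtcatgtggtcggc
Hoxa11: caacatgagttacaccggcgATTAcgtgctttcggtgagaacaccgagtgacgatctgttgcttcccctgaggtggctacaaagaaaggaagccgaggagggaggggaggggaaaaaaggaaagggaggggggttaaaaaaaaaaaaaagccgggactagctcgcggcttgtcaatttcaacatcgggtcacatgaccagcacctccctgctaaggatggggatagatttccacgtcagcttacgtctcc
Hoxa7: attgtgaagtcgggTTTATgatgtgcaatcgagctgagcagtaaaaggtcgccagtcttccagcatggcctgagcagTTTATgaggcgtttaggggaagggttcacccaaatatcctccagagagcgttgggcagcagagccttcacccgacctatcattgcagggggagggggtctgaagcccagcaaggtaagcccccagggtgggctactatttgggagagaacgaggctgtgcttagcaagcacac
Hoxc4: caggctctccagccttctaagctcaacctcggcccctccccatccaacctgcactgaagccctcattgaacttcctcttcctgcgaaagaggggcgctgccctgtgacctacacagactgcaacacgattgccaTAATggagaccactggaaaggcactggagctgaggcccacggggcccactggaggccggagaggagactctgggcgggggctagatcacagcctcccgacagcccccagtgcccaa
The Hoxd13 window held 31 CG dinucleotides and a pair of overlapping TTTAT matches, 1 on each strand, in a TATA-like stretch. The Hoxd10 window held 20 CG dinucleotides and no match to either motif, and the Hoxa11 window held 13 and 1 match to TAAT. The Hoxa7 window, of a gene that rose, held 7 CG dinucleotides and 2 matches to TTTAT, and the Hoxc4 window 8 and 1 match to TAAT. Hoxd11, which fell, has 2 windows in the table, not printed: 1 held 2 CG dinucleotides, the fewest of any Hox window, with 3 matches to TAAT and 2 to TTTAT, and the other held 20 with 2 matches to TAAT. The CG count therefore did not separate the genes that fell from those that rose. RefSeq windows were found for 21 of the 37 members, 23 windows in all. Their median CG count was 13, against 6 over all 32851 windows of the table, and 31.5% of all windows held at least 13. TAAT was found in 17 of the 23 Hox windows and in 54.9% of all windows, and TTTAT in 8 of the 23 and in 37.3% of all. These matches describe the letters in these windows and are not binding sites.

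A signal was counted as above background when it exceeded the 95th percentile of 1027 olfactory receptor genes on the same array, genes that fibroblasts are not known to use; this level lay between 7.01 and 7.41 in log2 units over the 6 arrays. Between 20 and 28 of the 37 Hox genes were above it on any array. The tetraploid arrays had 22, 20 and 24 such genes and the diploid arrays 24, 22 and 28, ranges that overlap. On all 3 arrays of a line, 19 genes were above background in the tetraploid line and 19 in the diploid line, 15 of them in both. The count was the same in each line, but the genes were not all the same. Hoxa11, Hoxb6 and Hoxd11 were above background on every diploid and on no tetraploid array, as were 2.1% of all genes. No Hox gene showed the opposite, which only 191 of all 19939 genes did.

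**Figure D1:**
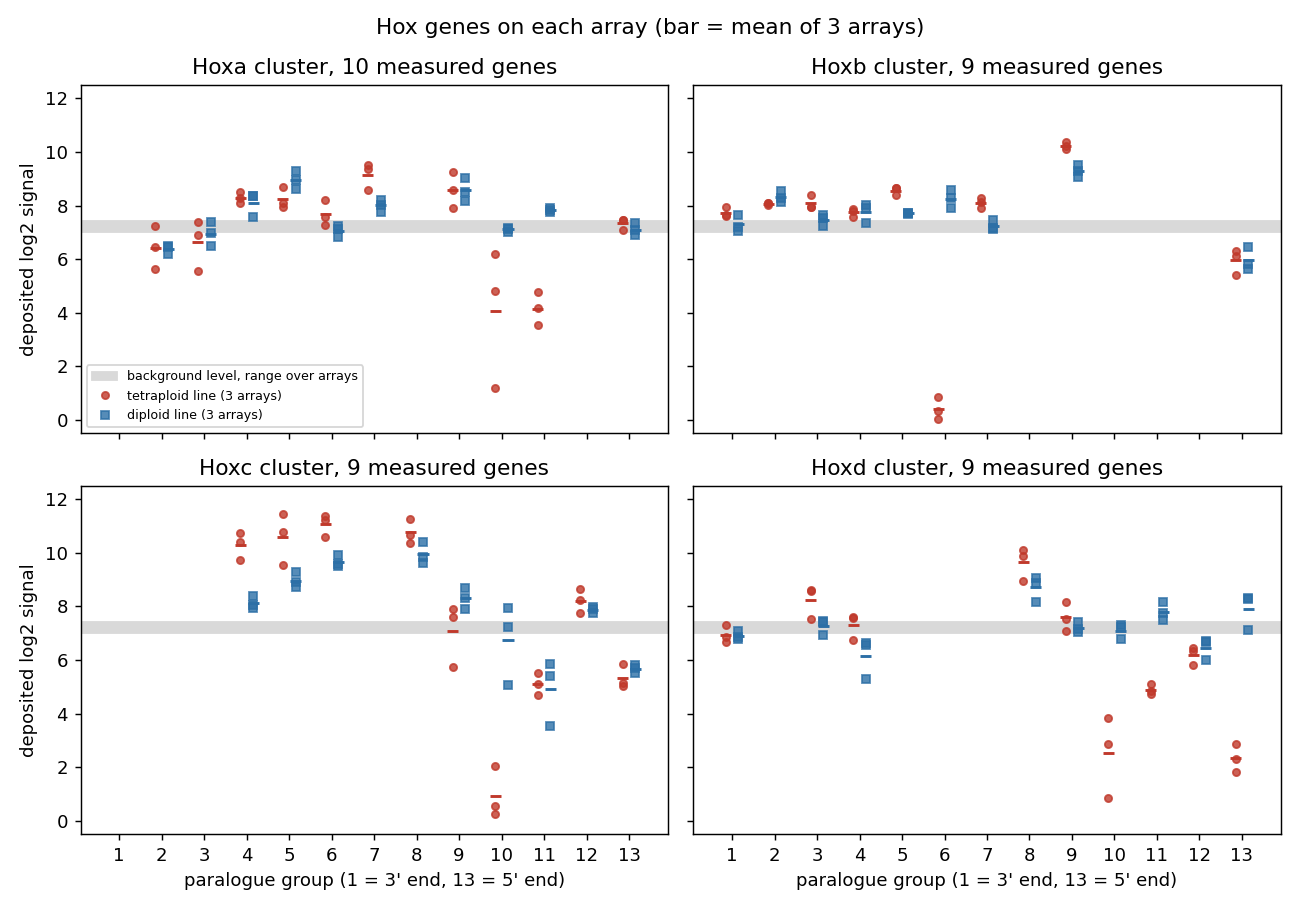
Deposited log2 signal (y axis) of each Hox gene on the 3 tetraploid (circles) and 3 diploid (squares) arrays against paralogue group (x axis), with 1 panel per cluster, bars for the mean of 3 arrays and a grey band for the background level over the arrays. In clusters A, C and D the circles of groups 10 and 11 lie below the squares except for Hoxc11. Those of Hoxb2, Hoxb6, Hoxc9 and Hoxd13 do too, for Hoxb2 by little.

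The 3′ genes, paralogue groups 1 to 3, act in the hindbrain and the anterior trunk. None of the 7 measured passed the test in either direction, and their median difference (tetraploid minus diploid) was 0.04, against 0.07 over all genes tested. Of all genes, 6.08% rose and 7.75% fell. Hoxb1 had tetraploid values of 7.62, 7.65 and 7.95 and diploid values of 7.21, 7.66 and 7.04, a difference of 0.44 ± 0.24 (SE) in overlapping groups (adjusted p = 0.276). Hoxb2 gave 8.02, 8.08 and 8.11 in the tetraploid and 8.54, 8.27 and 8.11 in the diploid line (difference -0.24, adjusted p = 0.487).
The groups of Hoxb2 did not overlap, but the highest tetraploid and lowest diploid values nearly met.
Hoxb3 gave 7.96, 8.40 and 7.95 in the tetraploid and 7.63, 7.55 and 7.24 in the diploid line, without overlap (difference 0.62, adjusted p = 0.118). Hoxd3 gave 8.60, 7.52 and 8.56 against 7.40, 6.92 and 7.44 in the diploid line, again without overlap, with a difference of 0.97 (adjusted p = 0.111). Hoxb3 and Hoxd3 lay higher on every tetraploid array, but by less than the test required on the values as deposited, while Hoxa3, the other gene of group 3, had a negative difference. Hoxa2, Hoxa3 and Hoxd1 were near or below background, and their differences lay between -0.32 and 0.04.

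The central genes, paralogue groups 4 to 8, pattern the neck, the thorax and the forelimb level. Of the 14 measured, 5 rose and 1 fell, 11 had a positive difference, and the median difference was 0.85. Over all genes 6.08% rose, 7.75% fell and 10921 of 19939 had a positive difference. The increase was seen most in cluster C: its 4 measured genes of these groups all had positive differences, with a median of 1.51. Whether the central genes differ from the other groups was not tested, since the members were chosen with results of these data known.

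Hoxc4, a cervical and upper thoracic gene, had the greatest increase of the 37. The tetraploid arrays gave 9.72, 10.39 and 10.74 and the diploid arrays 8.04, 8.39 and 7.94, a 4.46-fold higher level (log2 difference 2.16 ± 0.30, adjusted p = 0.00735). The lowest tetraploid value lay well above the highest diploid one, and the call was kept when any 1 of the 6 arrays was left out. Hoxc6, which acts at the forelimb and thoracic level, gave 10.60, 11.20 and 11.35 in the tetraploid and 9.56, 9.90 and 9.52 in the diploid line, 2.63-fold higher (adjusted p = 0.0178). It had no overlap either. Between them on the chromosome lies Hoxc5, with 9.54, 10.77 and 11.44 in the tetraploid and 8.73, 9.27 and 8.89 in the diploid line. Its difference of 1.62 ± 0.47 did not pass (adjusted p = 0.0657), and its 3 tetraploid arrays spread over almost 2 log2 units, with the first tetraploid array lowest for Hoxc4, Hoxc5 and Hoxc6 alike. Hoxc8, a thoracic gene, gave 10.65, 10.38 and 11.24 in the tetraploid and 9.63, 10.42 and 9.85 in the diploid line, groups that overlapped (difference 0.79, adjusted p = 0.148).

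In cluster B, Hoxb5 had tetraploid values of 8.66, 8.38 and 8.65 and diploid values of 7.73, 7.70 and 7.71, 1.80-fold higher (adjusted p = 0.0295). Hoxb7 had 8.27, 7.91 and 8.12 against 7.12, 7.45 and 7.18, also 1.80-fold higher (adjusted p = 0.0392). Both genes, which pattern the thoracic axis, stood clear of the diploid range on every tetraploid array. Hoxb4 did not differ beyond its spread, with 7.87, 7.56 and 7.81 in the tetraploid and 8.02, 7.91 and 7.37 in the diploid line (difference -0.02, adjusted p = 0.973).

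Hoxb6 lies between Hoxb5 and Hoxb7 and went the other way. Its diploid signals were 7.92, 8.58 and 8.28, all above background, and its tetraploid signals were 0.03, 0.34 and 0.85, near the lower end of the scale: between 0.331% and 0.602% of all genes had lower values on those arrays. The log2 difference of -7.85 ± 0.29 (adjusted p = 7.36e-05) was matched or passed by 11 genes, Hoxb6 included. Counted from the background level, the fall was at least 1.96-fold. The call was kept without any 1 array and also when all values below background were raised to that level (difference -0.97, adjusted p = 0.00351). A single probe set stands for Hoxb6, so no other probe of the gene could be set beside it.

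In cluster A, Hoxa7 gave 9.35, 9.53 and 8.59 in the tetraploid and 8.03, 8.20 and 7.78 in the diploid line, 2.22-fold higher (adjusted p = 0.0448). The groups stood apart, although the third tetraploid array was nearest to the diploid values. Hoxa6 gave 7.57, 8.20 and 7.28 against 7.24, 6.81 and 7.13 (difference 0.62, adjusted p = 0.202). Hoxa5, a gene known for lung and upper thoracic patterning, gave 8.11, 8.71 and 7.93 in the tetraploid and 9.29, 8.95 and 8.61 in the diploid line (difference -0.70, adjusted p = 0.162). It was the central gene besides Hoxb6 with the most negative difference, in overlapping groups. Hoxa4 gave 8.51, 8.29 and 8.10 against 8.37, 8.35 and 7.57 (difference 0.20, adjusted p = 0.693). In cluster D, Hoxd8 gave 10.10, 8.96 and 9.86 in the tetraploid and 8.16, 8.88 and 9.07 in the diploid line, with overlap (difference 0.93, adjusted p = 0.155). Hoxd4 was above background on 2 tetraploid and no diploid array (difference 1.13, adjusted p = 0.129).

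**Figure D2:**
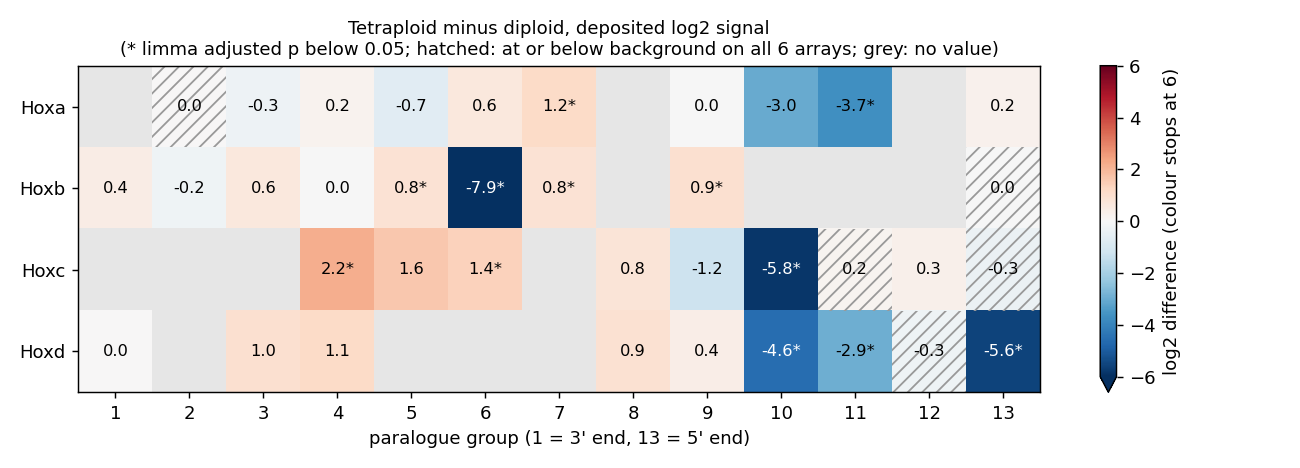
Tetraploid minus diploid difference in mean log2 signal for each measured Hox gene, by cluster (rows) and paralogue group (columns), with a star where limma's adjusted p is under 0.05, hatching for the 5 genes at or below background on all 6 arrays, and grey where no gene has a value. Stars with positive values lie in groups 4 to 9 and stars with negative values in groups 10, 11 and 13, apart from Hoxb6.

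The 5′ genes, paralogue groups 9 to 13, pattern the lumbar, sacral and tail regions and, in clusters A and D, the limb beyond the shoulder and hip. Of the 16 measured, 1 rose and 5 fell, 11 had a negative difference, and the median was -0.30. Over all genes 6.08% rose, 7.75% fell and 9017 of 19939 had a negative difference. Of the 4 genes of group 9, 2 had positive and 2 negative differences. Hoxb9 rose, with 10.36, 10.12 and 10.22 in the tetraploid and 9.08, 9.30 and 9.50 in the diploid line, 1.92-fold higher (adjusted p = 0.0282). Its values showed a clear gap between the lines. Hoxa9 gave 9.24, 8.57 and 7.89 in the tetraploid and 9.04, 8.52 and 8.16 in the diploid line, with full overlap (difference -0.01, adjusted p = 0.992). Hoxc9 gave 7.61, 5.76 and 7.89 against 7.91, 8.70 and 8.31 in the diploid line (difference -1.22, adjusted p = 0.202). All 3 tetraploid values of Hoxc9 lay below the diploid ones, with the second tetraploid array far below the rest. Hoxd9 lay near background in both lines, with a difference of 0.40 (adjusted p = 0.443).

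The 3 measured genes of group 10, which acts at the lumbar level and in the proximal limb, were all lower on every tetraploid array. Of all genes, 18.2% lay lower on every tetraploid array than on any diploid array. Hoxc10 gave 2.03, 0.25 and 0.54 in the tetraploid and 5.06, 7.95 and 7.25 in the diploid line (log2 difference -5.81 ± 0.80, adjusted p = 0.00672). The first diploid array fell below background, so no fold is given. Hoxd10 gave 2.86, 3.83 and 0.86 against 7.32, 7.22 and 6.76 (difference -4.58 ± 0.69, adjusted p = 0.0095). Only 1 diploid array was above background for Hoxd10, so no fold is given. Hoxa10 gave 6.21, 4.80 and 1.18 against 7.02, 7.17 and 7.14 (difference -3.05, adjusted p = 0.129), a difference that did not pass, with the 3 tetraploid arrays spread widely. It was above background on no tetraploid and only 1 diploid array. With values raised to background its difference turned to 0.08 (adjusted p = 0.611).

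Group 11 acts at the sacral level and in the forearm and lower leg. Hoxa11 gave 3.55, 4.17 and 4.76 in the tetraploid and 7.75, 7.82 and 7.90 in the diploid line, at least 1.45-fold lower (log2 difference -3.67 ± 0.32, adjusted p = 0.00136). Hoxd11 gave 5.10, 4.73 and 4.82 against 8.15, 7.49 and 7.74, at least 1.42-fold lower (log2 difference -2.91, adjusted p = 0.00117). Both were above background on all diploid arrays and well below it on all tetraploid arrays. Hoxc11 was at or below background on all 6 arrays.

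In group 13, which acts in the hand and foot and in the genital region, Hoxd13 gave 2.29, 1.82 and 2.88 in the tetraploid and 8.29, 7.13 and 8.31 in the diploid line. Its log2 difference was -5.58 ± 0.41 (adjusted p = 8.76e-04). On 2 of the 3 diploid arrays Hoxd13 was clear of background. The second diploid array fell just below background, so no fold is given. Hoxa13, the other group 13 gene of the digits, stayed near background in both lines, with a difference of 0.24 (adjusted p = 0.538). Hoxb13 and Hoxc13, and Hoxd12 of group 12, were at or below background on all 6 arrays, and Hoxc12 gave 7.74, 8.63 and 8.25 against 7.76, 7.97 and 7.90 (difference 0.33, adjusted p = 0.471).

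All 6 decreases were kept when any 1 array was left out, but all 6 rest on tetraploid values at or below background, and 4 of the calls depended on how far below. When every value below background was raised to that level, 9 Hox genes rose and 3 fell, against 9.83% and 9.97% of all genes. Hoxb6, Hoxa11 (adjusted p = 0.016) and Hoxc9 (adjusted p = 0.0481) were then those that fell. The calls ended for Hoxc10 (adjusted p = 0.463), Hoxd11 (0.0797) and Hoxd13 (0.108), and Hoxd10 changed sign to 0.09 (adjusted p = 0.588). In that fit a gene below background on all 6 arrays took a difference of 0.12, which was also the median over all genes. Hoxb3 (0.0275), Hoxc5 (0.0147) and Hoxd3 (0.0406) joined the 6 genes that rose.

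More of the increases than of the decreases lost their call when 1 array was left out. With 1 array left out, 4 Hox genes rose without the first tetraploid array, 3 without the second and 3 without the third, and 1 without each of the diploid arrays. Those counts include Hoxc5 without the first tetraploid array and Hoxd3 without the second, genes not among the 6 that rose on all arrays. Hoxc4 was called in all 6 of these fits, Hoxc6 and Hoxb5 in 2, Hoxa7 in 1, and Hoxb9 and Hoxb7 in none, with adjusted p from 0.0522 to 0.109 for Hoxb9 and from 0.0568 to 0.139 for Hoxb7. Fewer genes passed in all of these fits, between 839 and 2522 of 19939 against 2758 on 6 arrays. Without any test, 11 Hox genes had all tetraploid arrays above all diploid arrays and 9 the reverse, or 29.7% and 24.3% of the 37, against 19.1% and 18.2% of all genes.

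**Figure D3:**
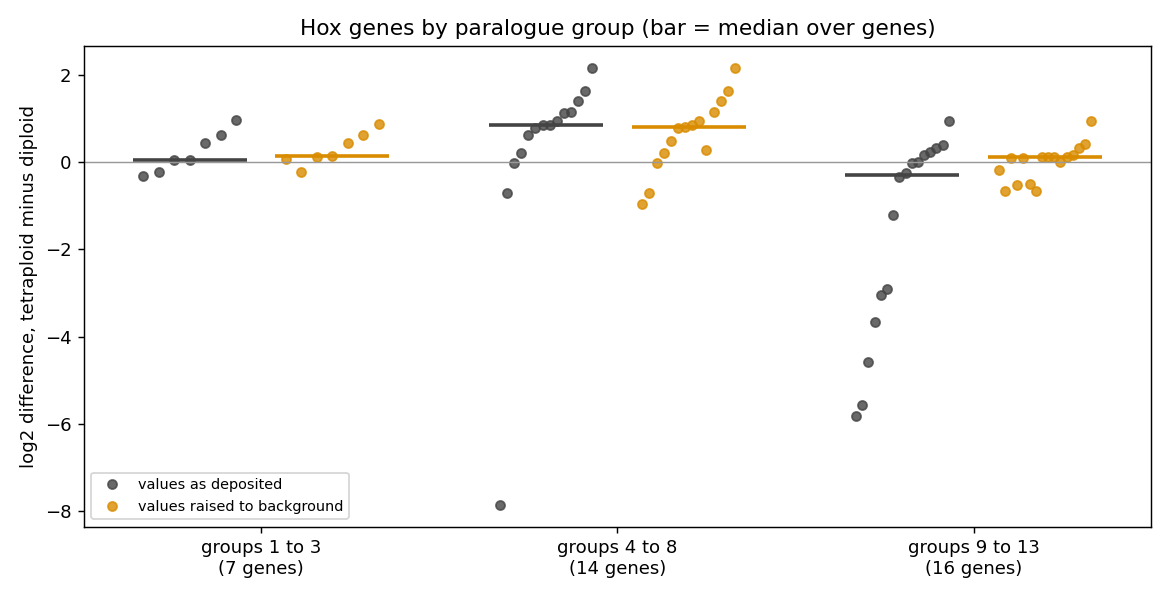
Log2 difference (y axis) of each Hox gene in paralogue groups 1 to 3, 4 to 8 and 9 to 13, from the values as deposited (dark) and from values raised to the background level (orange), with a bar at the median over genes. Raising the values leaves the median of groups 4 to 8 at 0.80 and moves that of groups 9 to 13 from -0.30 to 0.11. With raised values the median over all genes is 0.12, the difference of any gene below background on all 6 arrays.

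By cluster, 1 gene rose and 1 fell in cluster A, 3 rose and 1 fell in B, and 2 rose and 1 fell in C. In cluster D none rose and 3 fell. These counts stand beside 6.08% of all genes that rose and 7.75% that fell. The median differences were 0.02 in A, 0.44 in B, 0.33 in C and 0.04 in D. The 5 genes of cluster D in groups 9 to 13 had a median of -2.91 as deposited. With values raised to background it became 0.09, against 0.12 over all genes. The 2 central genes of cluster D both had positive differences. The tetraploid arrays spread more than the diploid arrays for Hox genes, with a median SD of 0.45 against 0.29, as they did over all genes (0.34 against 0.24).

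The genes around the clusters gave a measure of the wider region. The 10 nearest measured genes on each side had a median difference of 0.06 at cluster A (1 rose, none fell), -0.06 at B (1 rose, 1 fell), 0.22 at C (4 rose, 1 fell) and 0.08 at D (2 rose, 1 fell). Over all genes 6.08% rose and 7.75% fell. Around cluster C, where the Hox increases were greatest, Cbx5, which encodes a heterochromatin protein, was 2.26-fold higher (adjusted p = 0.00985) and Atp5g2, a subunit of the mitochondrial ATP synthase, 1.70-fold higher (adjusted p = 0.0402). In log2 units the difference was 1.18 for Cbx5 and 0.77 for Atp5g2. The central Hoxc genes had 2.16 (Hoxc4), 1.62 (Hoxc5), 1.39 (Hoxc6) and 0.79 (Hoxc8). The part of the region's own level in the Hoxc values was not tested. Of a list of 20 measured genes next to the clusters, 3 rose, 1 fell and 16 did not pass, beside the same shares of all genes. Calcoco2, the other that rose, was at or below background on all arrays, and the sorting nexin Snx11 was at least 1.08-fold lower (adjusted p = 0.00777). The even-skipped homeobox genes Evx1 and Evx2, which border the 5′ ends of clusters A and D, did not pass, with differences of 0.05 and -0.20. Neither did Skap2, at the 3′ end of cluster A (0.23), and Mtx2, at the 3′ end of cluster D (0.50). Thus Evx2 lay within its replicate spread beside Hoxd13, its neighbour, which fell. Farther out on the Evx2 side of cluster D, Chn1 fell (log2 difference -5.47, adjusted p = 0.00427). The gene that fell around cluster C was Itga5 (log2 difference -1.55, adjusted p = 0.0124).

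Of 11 measured non-coding RNAs of the clusters none rose or fell, and 10 were at or below background on all arrays, among them the probe sets of Mir10a, Mir10b, Mir196a-1, Mir196a-2, Mir196b and Hottip. Mir615, which lies within Hoxc5, gave 8.31, 9.20 and 8.65 in the tetraploid and 8.11, 8.85 and 8.54 in the diploid line (difference 0.22, adjusted p = 0.692). Signal of a mature miRNA and of a longer transcript that contains it cannot be told apart here.

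Hox proteins bind DNA together with the TALE homeodomain proteins of the Pbx, Meis and Pknox families. Of 9 measured genes, these families and Pbxip1, which is no TALE gene, 1 rose, 2 fell and 6 did not pass, with a median of -0.34, beside 6.08% and 7.75% of all genes. Pbx2 was 1.85-fold higher (adjusted p = 0.0485). Meis3 was at least 1.75-fold lower (adjusted p = 0.0179), and Pbxip1, which encodes a protein that binds Pbx factors, at least 4.74-fold lower (adjusted p = 0.00982). Meis1, the Meis gene best known as a partner of central and 5′ Hox proteins, gave 9.43, 10.11 and 9.90 against 9.44, 9.63 and 9.54 (difference 0.28, adjusted p = 0.49).

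Polycomb complexes keep Hox genes silent where they are not used. Of 29 measured genes 4 rose, 3 fell and 22 did not pass, with a median of 0.38, beside 6.08% and 7.75% of all genes that rose and fell. With values raised to background 7 rose and 4 fell, beside 9.83% and 9.97% of all genes. Ezh2, the methyltransferase that marks silenced Hox chromatin, gave 11.42, 10.92 and 10.48 in the tetraploid and 9.63, 9.29 and 9.46 in the diploid line, 2.80-fold higher (adjusted p = 0.0178). Its partner Eed fell, 1.77-fold (adjusted p = 0.0295), so that subunits of the same complex went in opposite directions. Phf1, an accessory subunit, was 2.25-fold higher, and of the other Polycomb complex Pcgf5 was 3.5-fold and Phc1 2.32-fold higher while Pcgf3 was 2.24-fold and Phc2 2.21-fold lower (adjusted p between 0.0117 and 0.0222).

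Trithorax-type complexes maintain Hox expression. Of 15 measured genes 2 rose, 1 fell and 12 did not pass, with a median of 0.49, beside 6.08% and 7.75% of all genes; the number that fell is at the share over all genes. With values raised to background 8 rose, Kmt2a among them (adjusted p = 0.0203), and 1 fell, beside 9.83% and 9.97% of all genes. The core subunits Ash2l (2.28-fold, adjusted p = 0.0122) and Dpy30 (2.08-fold, adjusted p = 0.023) rose, and the H3K79 methyltransferase Dot1l fell 1.80-fold (adjusted p = 0.0475). Kmt2a, the methyltransferase best known for Hox maintenance, had a difference of 0.62 that did not pass (adjusted p = 0.105).

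Retinoic acid switches on Hox genes in the embryo, beginning at the 3′ ends. Of 23 measured genes of its pathway and of the Cdx factors, 1 rose, 6 fell and 16 did not pass, with a median of -0.22, beside 6.08% and 7.75% of all genes. Crabp1, a cytoplasmic retinoic acid binding protein, gave 13.39, 13.06 and 13.27 in the tetraploid and 11.89, 11.62 and 12.23 in the diploid line, 2.51-fold higher (adjusted p = 0.0142). The genes that fell were the retinaldehyde dehydrogenases Aldh1a1, Aldh1a2 and Aldh1a3, which make retinoic acid, the retinol dehydrogenase Rdh10, the retinaldehyde reductase Dhrs3 and the receptor Rarb. Dhrs3 was at least 3.31-fold lower (adjusted p = 0.0152), with 5.25, 5.11 and 7.14 against 8.79, 9.58 and 8.67. Aldh1a2 was at least 1.07-fold lower. None of Rarb, Aldh1a1 and Aldh1a3 was above background on every diploid array, so no fold is given for them. With values raised to background, only Dhrs3 and Rdh10 of the 6 still fell; the calls ended for Aldh1a1 (adjusted p = 0.716), Aldh1a2 (0.621), Aldh1a3 (0.731) and Rarb (0.754). Crabp2 (0.0145) and Gdf11 (0.0417), chosen for naming after their values were seen, fell in that fit and not on the values as deposited. In all, 4 genes of the list rose in that fit and 4 fell, beside 9.83% and 9.97% of all genes. Those that rose were Crabp1 and the receptor genes Rarg (0.0067), Rxra (0.00994) and Rxrb (0.00545). These receptor genes had not passed on the values as deposited and were also named after their values were seen.

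Other transcription factors that mark position in mesenchyme were set beside the Hox genes. Of 36 measured, 2 rose, 11 fell and 23 did not pass, with a median of -0.45, beside 6.08% and 7.75% of all genes. Only 7 of the 11 that fell were above background on any array, and the others, Dlx5 among them, were on none. Those that fell include Pitx1 and Tbx4, which mark the hindlimb, with Pitx1 at 1.23, 0.01 and 0.01 in the tetraploid and 5.53, 6.27 and 7.13 in the diploid line (adjusted p = 0.0012). Only the third diploid array was above background for Pitx1, so no fold is given. Foxd1 gave 2.25, 2.67 and 0.69 against 7.97, 7.81 and 7.63, at least 1.43-fold lower (adjusted p = 0.00116). Foxf1, a factor of visceral mesenchyme, was at least 1.81-fold lower (adjusted p = 0.00105) and Msx2, of limb and craniofacial mesenchyme, at least 1.65-fold lower (adjusted p = 0.0115). Dlx5, with no diploid array above background, fell without a fold that can be given (adjusted p = 0.015). Meox1, a somite factor, gave 7.25, 9.04 and 8.39 in the tetraploid and 0.07, 4.35 and 3.78 in the diploid line, at least 2.09-fold higher (adjusted p = 0.0219). With values raised to background the calls ended for Meox1 (adjusted p = 0.066), Msx2 (0.135), Pitx1 (0.599), Tbx4 (0.87) and Dlx5 (0.463), while Foxf1 and Foxd1 still fell (0.0101 and 0.0297). In all, 2 genes of the list then rose and 4 fell, beside 9.83% and 9.97% of all genes. Among them were Emx2 (rose, 0.0268) and Twist2 (fell, 0.0102), which had not passed on the values as deposited. The 8 homeobox genes of the ParaHox group and its relatives outside the clusters did not pass, neither up nor down.

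**Figure D4:**
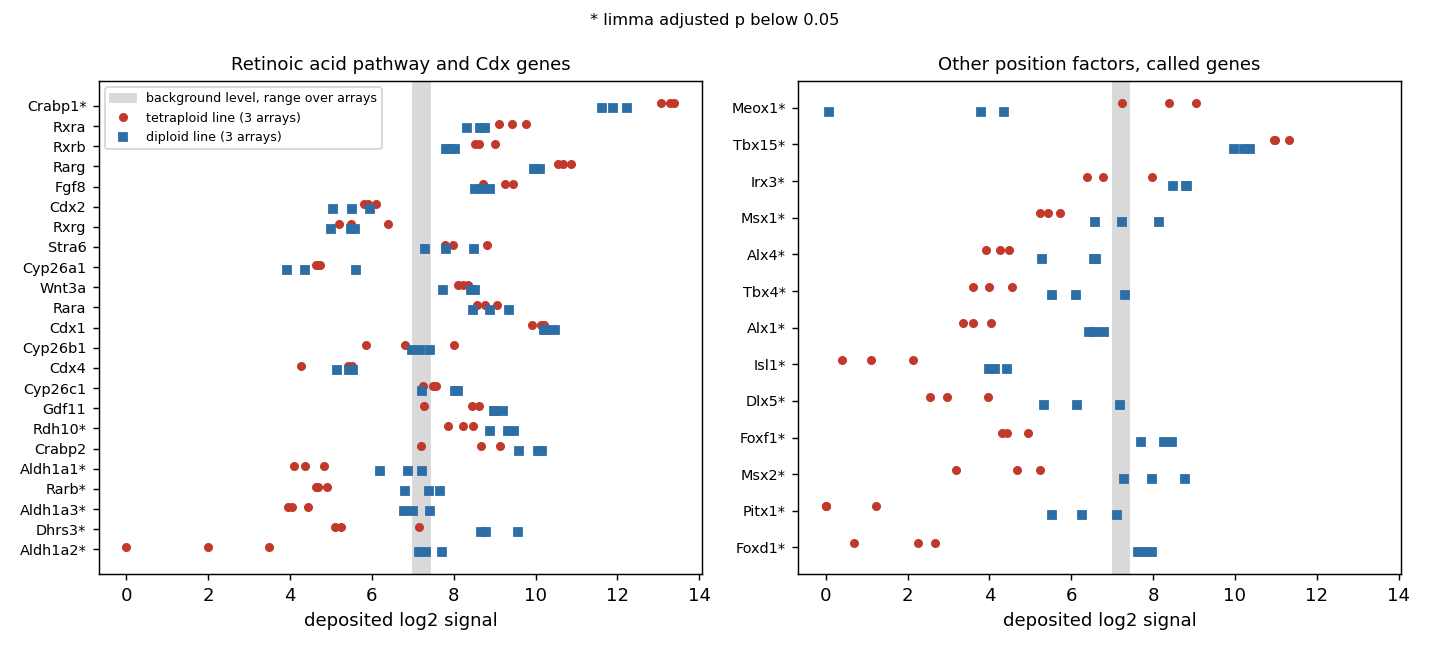
Deposited log2 signal (x axis) on the 3 tetraploid (circles) and 3 diploid (squares) arrays for the 23 genes of the retinoic acid and Cdx list (left) and the 13 called genes of the position factor list (right), ordered by difference, with a star at an adjusted p under 0.05 and a grey band for the background level. Aldh1a2, Pitx1 and Foxd1 lie far below the band on the tetraploid arrays, and Meox1 on the diploid arrays.

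The labelled cell type was checked against its markers. Of 12 fibroblast markers, 11 were above background on every array of both lines and none rose; Lum, Col1a1, Col5a1 and Fn1 fell, and Lum was below background on all tetraploid arrays. The summed signal of these 12 ran from 51525 to 62111 linear units in the tetraploid and from 78194 to 81572 in the diploid line. Markers of other cells were measured too. The 15 macrophage and leukocyte markers summed to 545, 844 and 470 units in the tetraploid and 631, 2035 and 3686 in the diploid line. Lyz1, Lyz2 and C1qa were lower in the tetraploid line at an adjusted p under 0.05. Array by array, the diploid line had 1, 4 and 10 of the 15 above background, and the tetraploid line 1, 1 and 0. Ptprc, Itgam, Adgre1, Cd14 and Tyrobp were at or below background on all arrays. The summed signal of the first diploid array lay within the tetraploid range. With values raised to background the calls of Lyz1 (adjusted p = 0.235), Lyz2 (0.0761) and C1qa (0.957) ended. The 10 endothelial markers summed to between 989 and 1177 units in the tetraploid and between 2672 and 3002 in the diploid line, with Flt1, Kdr and Emcn lower and Egfl7 higher; raised to background, the calls of Emcn (0.337) and Egfl7 (0.055) ended. Pecam1, Cdh5, Tek, Tie1 and Esam, which define endothelium, were at or below background on all arrays. Of the 12 epithelial markers, which summed to between 1576 and 2749 units in the tetraploid and between 1830 and 2248 in the diploid line, Krt18 fell (0.463 with values raised to background), and no neural or germ cell marker passed in either direction. The part of these cells in the Hox differences was not tested. In bulk RNA, fewer cells that use a gene and less RNA per cell cannot be told apart.

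The RefSeq spans of 10 members overlap in 6 pairs: Hoxa3 with Hoxa4, Hoxa5 and Hoxa6, Hoxb3 with Hoxb4, Hoxd3 with Hoxd4, and Hoxd10 with Hoxd11. Signal from a shared exon cannot be assigned to either gene of a pair, and how far the probes lie in shared exons was not tested.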

How the data were processed

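Total RNA depleted of ribosomal RNA was labelled as whole-transcript target and hybridised to 6 arrays, per the labels' protocols. The deposited table holds 1 value per probe set and array on the log2 scale, made by the authors with Affymetrix Expression Console, per the submitters' processing notes; its version and the summary and normalization method are not given in the sources used here. Array medians differ by at most 0.04. Of 28944 probe sets, 21789 carry 1 gene symbol, 1621 several and 5534 none in the platform annotation, and 21698 were matched to RefSeq by gene ID. The probe set with the highest mean stood for each of 19939 genes, and 998 genes had more than 1.

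Tetraploid and diploid arrays were compared for all genes with limma 3.58.1 (lmFit and eBayes, R 4.3.3), with Benjamini-Hochberg adjustment, 3 arrays against 3 and a threshold of 0.05. An exact permutation test of 3 against 3 cannot go below 0.1. A fold is "at least" where 1 line is at or below background on all arrays and the other is above it on every array. Values below background were raised to it before means were taken. No fold is given where both lines are at background or the raised means turn the sign. The same holds where 1 line is at background and the other is not above it on every array. The number of arrays limits the precision. The replicate numbers are not stated to pair the arrays, and same-numbered deviations correlate at 0.10, 0.03 and -0.05. Such correlations over all genes cannot settle whether the arrays were handled in pairs. The fit was tested on simulated data. Alternatives were quantile normalization, values raised to background, a filter on low genes, the mean of a gene's probe sets, limma's trend and robust prior, the replicate block and each array left out.

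Each Hox gene called, or above background on all 3 arrays of a line, is given with its value on every array (26 genes), and the other 11 by name; of each other list at most 6 called genes with the greatest differences were picked, with Evx1, Evx2, Mtx2, Skap2, Ezh2, Kmt2a and Meis1 always. Eed, Rdh10, Tbx4, Hoxa10, Crabp2, Gdf11, Rarg, Rxra, Rxrb, Emx2, Twist2, Chn1, Itga5 and the called marker genes were named after their values were seen. The members and lists were chosen with earlier results of these data known. RefSeq tables (GRCm38.p6) gave names, gene order and promoter bases; the array's own build is not given in the sources used here.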

Additional observations from a re-analysis of the deposited data

Results flagged for a closer look

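A probe set that carries the symbols of both Hoxb8 and Hoxb7 was left out of the members because it does not belong to a single gene. The tetraploid arrays ranged from 8.61 to 9.52 and the diploid arrays gave 7.78, 7.99 and 8.23, above background on all 6. The tetraploid arrays were higher by 1.05 in log2 units, without overlap, and this difference was not tested. The probe set of Hoxb7 alone was 0.85 higher. Outliers within a line were not looked for, since that rule needs groups of at least 4.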

How the results depend on the processing

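The replicate block, whose numbers are not stated to pair the arrays, gave 4 Hox genes that rose and 6 that fell. The 4 were Hoxa7, Hoxc4, Hoxc6 and Hoxd4 (adjusted p = 0.0499), the last not among the 6 that rose without the block. The calls ended for Hoxb5 (0.0829), Hoxb7 (0.105) and Hoxb9 (0.0782). Leaving out each array in turn gave between 1 and 4 that rose, and 6 that fell in every such fit. With values raised to background 3 fell, Hoxb6, Hoxa11 and Hoxc9, the last not among the 6. Testing only genes above background on at least 3 arrays also gave 3 that fell, Hoxb6, Hoxa11 and Hoxd11. That filter removed Hoxc10, Hoxd10 and Hoxd13 before the test, and fewer genes were tested. It also moved the median Hox difference from 0.17 to 0.44. Hoxd10 turned to 0.095 with raised values, where the median of all genes was 0.12. With 1 array left out, Hoxa4 ranged from -0.063 to 0.34, Hoxa9 from -0.34 to 0.33 and Hoxb4 from -0.22 to 0.11. Over the 26 genes given on every array, 263 fits kept direction and side of the threshold, 31 lost the call, 8 gained it and 7 changed sign. Quantile normalization gave 6 that rose and 6 that fell and moved the median of all genes from 0.07 to 0.11. The replicate block called 1647 of all genes and the trend and robust prior 4011, against 2758. The signal over background limits the 5′ genes: 5 of the 6 that fell have no fold bound above 1.45. The cause of each change other than the smaller gene sets was not tested.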
